A study of Homo sapiens with 4 samples.

Results

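The Notch pathway genes described here are 37 genes chosen by name. Among them are the Notch receptors and their ligands, the enzymes that glycosylate and cut the receptors, the nuclear complex and cytoplasmic regulators. The target and target-family group holds genes that the pathway switches on and relatives of such genes. The 37 were taken from an expression array table of 54613 probe sets, groups of short probes that together measure 1 transcript. In it, 80 probe sets carry the symbol of 1 of these genes and no other. All 37 genes had at least 1 such probe set, and 26 had several. The whole table held 19775 genes.

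The study compared HuCCT1, an established human cholangiocarcinoma (bile duct cancer) cell line, labelled ARID1A wild type, with HuCCT1 cells labelled ARID1A knockout, on 2 arrays each. The protein ARID1A binds DNA as part of SWI/SNF, a complex that moves nucleosomes. Per the labels' protocols, the knockout used the lentiCRISPR v2 vector with the guide tgagcgagactgagcaacac, puromycin selection and cloning by limiting dilution. No wild-type cells treated with an empty vector are named, and the labels do not say whether the 2 knockout arrays came from 1 clone or 2, or whether cultures were separate. The spread that the p-values measure may therefore be technical. Both groups were grown in the same serum-supplemented medium.

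The labels were first checked against the data. ARID1A itself had log2 values of 8.55 and 8.61 in the wild-type arrays and 6.15 and 5.95 in the knockout-labelled ones. Its difference was −2.53 ± 0.11 (SE, limma adjusted p = 0.00014), with 3 of its 4 probe sets past the threshold. Genes that check sample identity split the 4 arrays, 2 of them not matching the rest. Loss of ARID1A and a different origin of the cells cannot be told apart as sources of the differences below, which are described by label alone. Of 6 markers of bile duct and other simple epithelia, 4 were lower and 1 higher in the knockout-labelled cells, and the log2 of their summed signal was 14.34 to 14.39 in the wild-type and 13.44 to 13.50 in the knockout-labelled arrays. EPCAM, an epithelial adhesion molecule, differed by −4.73 and CDH1, E-cadherin, by −3.51. Of 5 hepatocyte markers ALB (1.73), FGB (2.20) and TTR (0.45) were higher, and SERPINA1 was lower by far more (−4.57). The summed signal of the 5 was 10.70 to 10.82 against 7.03 to 7.66. ALB was dim in the wild type (1.77 and 1.81, against 4.09 and 2.95), with 1 of its 4 probe sets called. FGB had 1 of 2 called and SERPINA1 3 of 4. The 1 probe set of TTR was not called when adjusted over all probe sets. Of 3 measured leukocyte markers 1 was lower (5.43 to 5.82 against 4.75 to 4.78), of 5 fibroblast or stellate cell markers 1 was higher and 1 lower (9.16 to 9.17 against 7.70 to 8.03), and of 5 endothelial markers 1 was higher (5.85 to 5.94 against 5.96 to 6.18). In each sum the brightest probe sets weigh most, such as SERPINA1 (mean 10.72 in the wild type) and COL1A1 (8.96). Probe sets bind with different strength, so the sums are no level of a cell type. The marker values carry no detection call, so none of the markers can be read as absent. Their part in the Notch results was not tested. In such bulk RNA of a cell line, fewer cells that express a gene and less of its RNA per cell cannot be told apart.

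Notch signalling works by contact between neighbouring cells. A Delta-like or Jagged ligand on one cell binds a Notch receptor on the next, and the receptor is then cut, first by an ADAM protease outside the membrane and then by gamma-secretase within it. The freed intracellular domain enters the nucleus, joins the DNA-binding protein RBPJ and a Mastermind-like (MAML) coactivator, and turns on genes such as those of the HES and HEY repressor families. In the developing liver, Jagged1 acting on Notch receptors directs progenitor cells to become bile duct cells, and loss of JAG1 or NOTCH2 function causes Alagille syndrome, in which bile ducts are sparse.

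Values are on the log2 scale as deposited, so a difference of 1 is a 2-fold difference, and all differences are knockout-labelled minus wild type. Each gene is represented by its brightest probe set over the 4 arrays. A gene is called higher or lower where limma's moderated test gave a p under 0.05 after Benjamini-Hochberg adjustment over the 19775 genes. Errors after ± are the standard errors (SE) of that fit, and intervals are its 95% intervals. Levels of different genes are not comparable on this scale, because each probe set binds with its own strength.

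Of the 37 Notch pathway genes, 13 were called higher and 7 lower in the knockout-labelled cells, and 17 were not called. The genes called higher were 5 target-family genes, the ligands JAG1, JAG2 and DLL3, the proteases ADAM10 and ADAM17, the receptor NOTCH1, the glycosyltransferase LFNG and the coactivator MAML3, with the largest rises in NRARP, HES1, MAML3, JAG1, HEY1 and HES6. The genes called lower were the cytoplasmic regulators DTX2, NUMB, DTX4 and NUMBL, the coactivator MAML2, the gamma-secretase subunit APH1B and the glycosyltransferase RFNG, with the largest falls in MAML2 and DTX2. The called share of 54.1% compares with 38.7% of all genes, where 21.5% were called higher and 17.2% lower. That comparison depends on brightness. With genes under the 40th percentile of mean level left out, 19 of 29 remaining Notch genes were called (65.5%) against 63% of all remaining genes, and with the 60th percentile 14 of 19 (73.7%) against 73.7%. The pathway as a whole was thus called about as often as other genes of like brightness. Differences of at least 2-fold were called in 9 of the 37 genes (24.3%) and in 16.6% of all genes. The 2 groups did not overlap in 28 of the 37 (75.7%), against 66.4% of all genes. The median difference was 0.07, beside 0.06 over all genes.

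The counts fell most when a wild-type array was left out. Such a fit takes its spread from the knockout-labelled arrays alone. Those lay further apart, with a median gap over the members of 0.10 between arrays, against 0.08 in the wild type. Without wild-type replicate 1, 8 members were called higher and 2 lower, and the same counts were obtained without wild-type replicate 2. Without knockout replicate 2, 10 were called higher and 4 lower. Over all genes the count of calls fell from 7657 to 3939 and 4061 without wild-type replicate 1 and 2. NOTCH1, JAG1, JAG2, MAML2, DTX2, HES1, HES6, HEY1 and NRARP were called whichever array was left out.

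**Figure D1:**
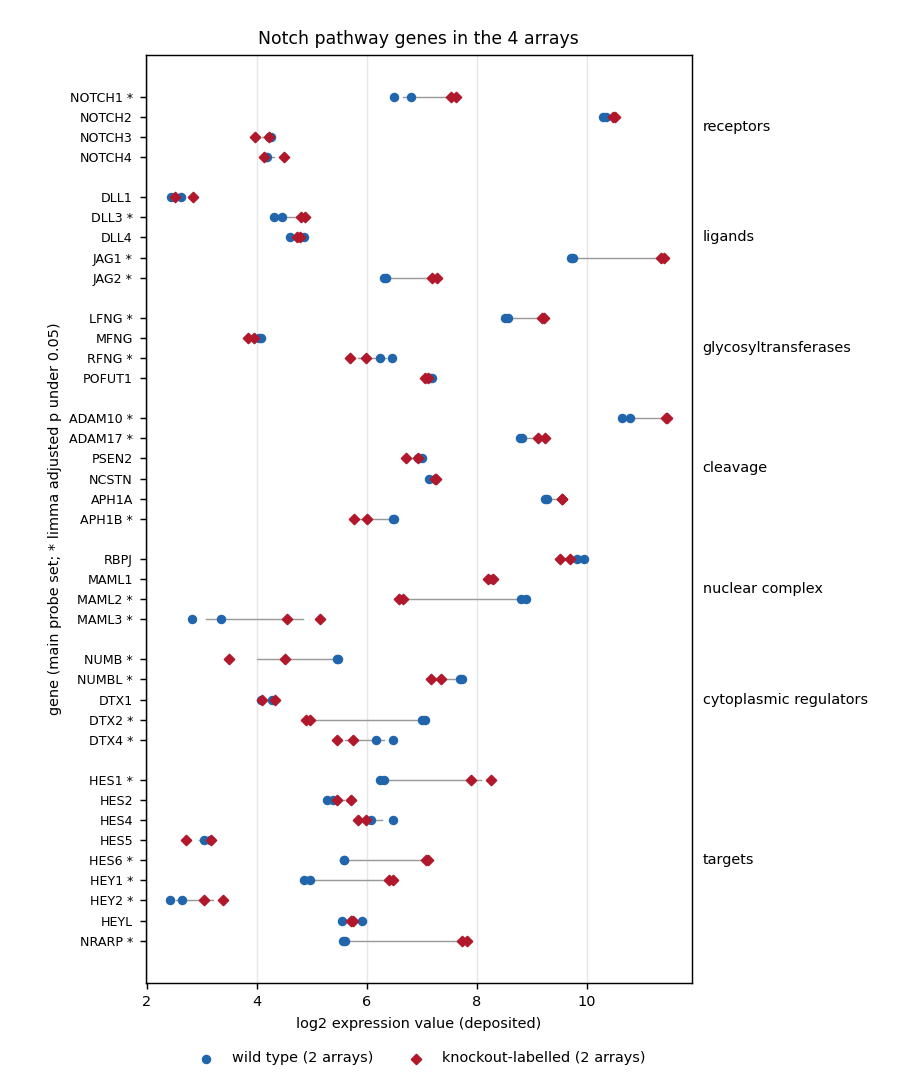
Log2 expression of the 37 Notch pathway genes (vertical axis, grouped by role) in the 4 arrays, with circles for the 2 wild-type arrays, diamonds for the 2 knockout-labelled arrays and a grey line between the group means. An asterisk marks the 20 called genes; for NRARP, JAG1, MAML2 and DTX2 the groups lie far apart relative to the distance between arrays of a group.

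Among the receptors, NOTCH1 was higher and the other 3 were not called. NOTCH1 had values of 6.80 and 6.50 in the wild-type arrays and 7.62 and 7.54 in the knockout-labelled arrays. Both knockout-labelled values lay above both wild-type values, 1.90-fold apart on average (log2 difference 0.93 ± 0.13 SE, limma adjusted p = 0.0049). Its second, dimmer probe set gave −0.06 (adjusted p = 0.826). NOTCH2, the receptor whose loss impairs bile duct formation, stood at 10.34 and 10.31 in the wild type and at 10.48 and 10.52 in the knockout-labelled arrays. Its groups did not overlap, but the difference of 0.17 had a 95% interval of −0.07 to 0.42 (limma adjusted p = 0.228), and none of its 4 probe sets was called. With limma's variance trend, which lets the expected spread vary with the level, NOTCH2 was called (adjusted p = 0.0297). NOTCH3 had values of 4.21 and 4.25 against 3.96 and 4.22, which overlap (adjusted p = 0.458). NOTCH4, best known from endothelial cells, had values of 4.17 and 4.19 against 4.13 and 4.49, which also overlap (adjusted p = 0.559). The sign of both changed with the mean of their probe sets, and for these 2 receptors no direction can be given.

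The ligands were called higher or not called. JAG1 (Jagged1), the ligand of bile duct development, had values of 9.75 and 9.71 in the wild-type arrays and 11.40 and 11.35 in the knockout-labelled arrays. The arrays of a group lay within 0.05 of each other, and the difference was 1.64 ± 0.09 (SE, limma adjusted p = 0.000278), or 3.13-fold. Of the 6 probe sets of JAG1, 4 were called higher, with differences of 1.64, 1.77, 1.82 and 1.98. The remaining pair gave 0.02 and −0.10. Their means over the 4 arrays lay at the 54.4th and 27.4th percentile of all probe sets, below those of the 4 called. Why this pair did not follow the others was not tested. JAG2, the other Jagged ligand, had values of 6.31 and 6.35 against 7.28 and 7.18. Its difference was 0.90 ± 0.10 (adjusted p = 0.00193), and its second probe set gave 0.95 and was also called.

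By their brightest probe sets the Delta-like ligands differed little. DLL3, a Delta-like protein that inhibits Notch inside the cell that makes it, had values of 4.46 and 4.31 against 4.81 and 4.87 (difference 0.45, limma adjusted p = 0.0248). That call was carried by 1 of its 4 probe sets, the other 3 giving −0.07, −0.03 and −0.02. It was lost whichever array was left out (adjusted p = 0.0842 and 0.153 without wild-type replicate 1 and 2, and 0.0738 and 0.0981 without knockout replicate 1 and 2). DLL1 had values of 2.44 and 2.62 against 2.50 and 2.84 (adjusted p = 0.534). DLL4, a ligand of blood vessel growth, had values of 4.86 and 4.61 against 4.73 and 4.79 (adjusted p = 0.912). In both the groups overlapped by the brightest probe set. The 95% intervals of their differences were −0.25 to 0.54 for DLL1 and −0.29 to 0.34 for DLL4. A second, dimmer probe set of DLL1 had values of 2.03 and 2.12 against 2.38 and 2.98, which do not overlap. Its difference of 0.60 was not called (limma adjusted p = 0.118 over all probe sets). With no detection call, probe sets as dim as those of DLL1 need not follow a change of the transcript.

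The glycosyltransferases modify the extracellular repeats of the receptor and so tune which ligands it answers to. The 3 Fringe enzymes add N-acetylglucosamine to O-fucose, and they went different ways. LFNG (Lunatic Fringe) rose, from 8.52 and 8.56 to 9.18 and 9.23 (difference 0.67 ± 0.10, limma adjusted p = 0.00465), and its dimmer probe set gave 0.43 (adjusted p = 0.0585). RFNG (Radical Fringe) had values of 6.24 and 6.46 against 5.98 and 5.69. Its difference of −0.51 only just passed (adjusted p = 0.0465) and did not pass with any array left out, with adjusted p from 0.0572 without knockout replicate 1 to 0.251 without wild-type replicate 2 (0.126 without wild-type replicate 1 and 0.165 without knockout replicate 2), nor with the arrays centred on their medians (0.0524). LFNG lost its call without wild-type replicate 1 (0.059) or 2 (0.0519). MFNG (Manic Fringe) was not called by its brightest probe set (−0.16, adjusted p = 0.277), while 1 of its 3 probe sets was called higher (0.60, adjusted p = 0.0155 over all probe sets, of which 26.9% were called). POFUT1, which adds the O-fucose that Fringe extends, differed by −0.09 with a 95% interval of −0.33 to 0.15 (adjusted p = 0.524).

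The proteases that release the intracellular domain differed by less than 2-fold. ADAM10, the main protease of ligand-induced Notch cleavage, had values of 10.78 and 10.64 in the wild-type arrays and 11.44 and 11.46 in the knockout-labelled arrays. The groups lay apart, 1.66-fold on average (log2 difference 0.74 ± 0.10 SE, limma adjusted p = 0.00436), and 2 of its 3 probe sets were called. Without wild-type replicate 2 the adjusted p of ADAM10 was 0.0538. ADAM17, a related shedding protease, had values of 8.79 and 8.82 against 9.25 and 9.11. Its difference of 0.38 passed (adjusted p = 0.039), its other probe sets gave 0.31 each, and the call was lost whichever array was left out (adjusted p = 0.19 and 0.166 without wild-type replicate 1 and 2, and 0.0985 and 0.0551 without knockout replicate 1 and 2).

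Of the gamma-secretase subunits listed, 1 of 4 was called. APH1B, an alternative scaffold subunit, was lower, at 6.47 and 6.50 in the wild type against 5.99 and 5.76 (difference −0.61 ± 0.12, limma adjusted p = 0.0133). Its other probe set gave −0.12 (adjusted p = 0.586), and the call was lost without wild-type replicate 1 (0.104) or 2 (0.111). APH1A, the usual scaffold, went the other way, from 9.28 and 9.23 to 9.55 and 9.54. Its difference of 0.29 did not pass (adjusted p = 0.064), although all 3 probe sets of APH1A had a positive difference (0.29, 0.35 and 0.44) and 5 of 14 alternative settings called it. PSEN2 (presenilin 2, a catalytic subunit) differed by −0.15 (95% interval −0.45 to 0.16) and NCSTN (nicastrin, which recognises substrates) by 0.07 (−0.19 to 0.33), and neither was called.

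In the nuclear complex, 2 of the 3 Mastermind-like coactivators differed, in opposite directions. MAML2 was the member with the largest fall, from 8.80 and 8.89 in the wild-type arrays to 6.66 and 6.59 in the knockout-labelled arrays. The groups lay far apart, 4.66-fold on average (log2 difference −2.22 ± 0.10 SE, limma adjusted p = 0.000135). Its second probe set also fell, by 1.48 on the log2 scale (adjusted p = 0.0102). MAML3 was higher, with values of 2.81 and 3.34 in the wild type and 5.14 and 4.54 in the knockout-labelled arrays. The groups did not overlap, but arrays of a group differed by 0.53 and 0.61, and the difference was 1.77 ± 0.27 (adjusted p = 0.00599). Its other 2 probe sets gave 0.40 and −0.33 and were not called, and without wild-type replicate 1 the adjusted p of MAML3 was 0.0689. MAML1 had values of 8.25 and 8.28 against 8.29 and 8.21, with a 95% interval of the difference of −0.27 to 0.23 (adjusted p = 0.913). RBPJ, the DNA-binding protein on which all canonical Notch output depends, had values of 9.95 and 9.83 against 9.70 and 9.52. The groups of RBPJ did not overlap, but its difference of −0.28 was not called (95% interval −0.58 to 0.02, adjusted p = 0.122). All 3 of its probe sets had a negative difference, and it was called under the variance trend (adjusted p = 0.0165), with the mean of its probe sets (0.0479) and without genes under the 60th percentile (0.0301).

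**Figure D2:**
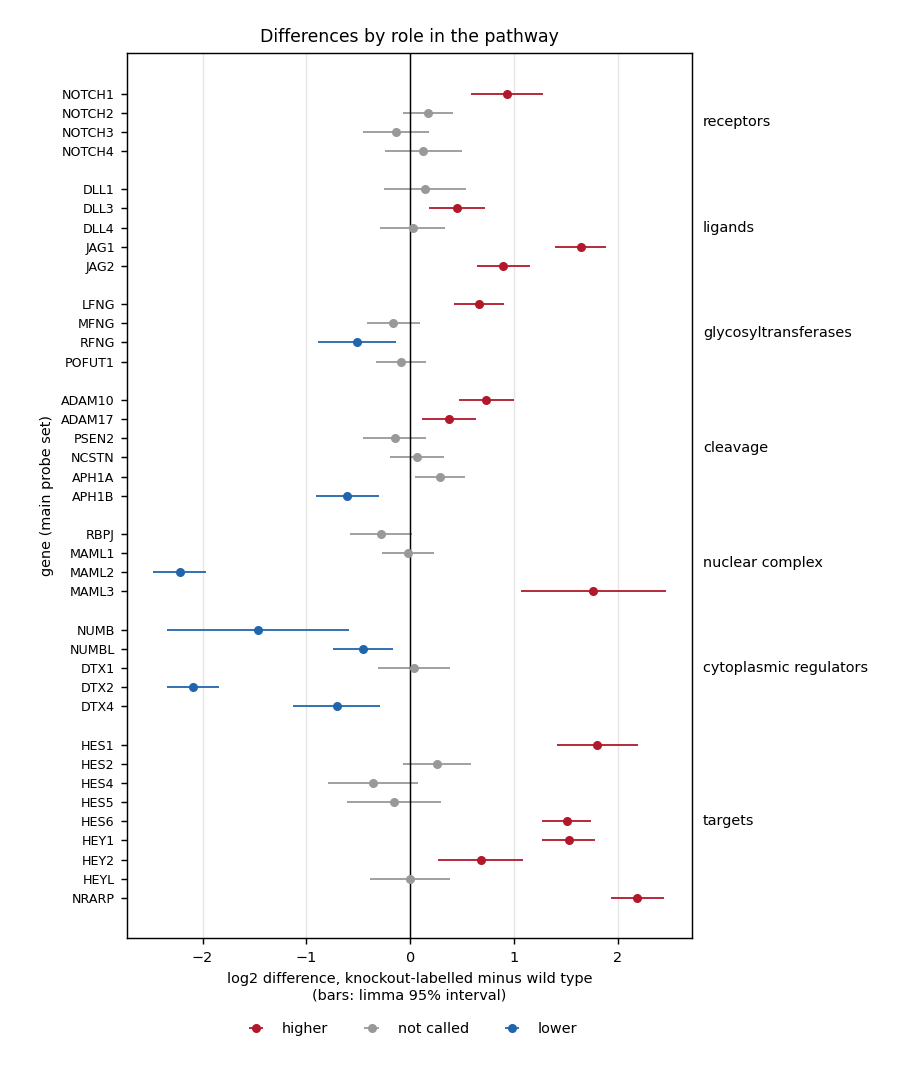
Log2 difference of each of the 37 genes (horizontal axis, knockout-labelled minus wild type, with limma's 95% interval), grouped by role and coloured by call. The called cytoplasmic regulators all lie below 0, from −0.46 to −2.09. The called target and target-family genes all lie above 0, from 0.68 to 2.19.

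The cytoplasmic regulators were lower or not called. Of 5, 4 were called lower and 0 higher, where 17.2% of all genes were called lower, with a median difference of −0.71 beside 0.06 over all genes. At or above the 40th percentile of mean level 4 of 4 were called, against 63% of all such genes in either direction. NUMB passed that filter only through its wild-type values. Its knockout-labelled mean lay below both group means of DTX1, which the filter left out. No conclusion is drawn from the 4 of 4. Of these 4 calls, 3 were lost without either wild-type array. DTX2 (Deltex 2), a ubiquitin ligase that binds Notch, had values of 6.99 and 7.06 in the wild-type arrays and 4.97 and 4.89 in the knockout-labelled arrays. Its 4.26-fold lower level (log2 difference −2.09 ± 0.10 SE, limma adjusted p = 0.000151) was the second largest fall of the pathway, and DTX2 has 1 probe set, so no other probe set checks it. DTX4, a related Deltex protein, had values of 6.16 and 6.47 against 5.75 and 5.46 (−0.71 ± 0.16, adjusted p = 0.0232). DTX1 had values of 4.27 and 4.06 against 4.09 and 4.32, which overlap (adjusted p = 0.867).

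NUMB, an adaptor that promotes endocytosis and breakdown of Notch and so opposes the pathway, stood at 5.46 and 5.47 in the wild type and at 4.51 and 3.48 in the knockout-labelled arrays. Both knockout-labelled values were lower, but they differed from each other by 1.03, the widest gap between arrays of a group among the 37 genes, and the difference was −1.47 ± 0.34 (limma adjusted p = 0.0233). NUMBL, its paralogue, had values of 7.69 and 7.73 against 7.35 and 7.16 (−0.46 ± 0.11, adjusted p = 0.0276). Apart from DTX2 these calls depended on the arrays used. Without wild-type replicate 1 or 2 the adjusted p was 0.163 and 0.166 for NUMB, 0.142 and 0.165 for NUMBL, and 0.072 and 0.155 for DTX4. DTX4 was also lost without knockout replicate 1 (0.055) or 2 (0.122), and NUMBL without knockout replicate 2 (0.0816).

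Of the 9 target and target-family genes, 5 were called higher and 0 lower, where 21.5% of all genes were called higher, with a median difference of 0.68 beside 0.06 over all genes. That share also depends on brightness. At or above the 40th percentile of mean level 4 of 7 genes of this group were called (57.1%), against 63% of all such genes. At or above the 60th it was 3 of 3, against 73.7%. Of these 3, NRARP and HES6 passed that filter only through their knockout-labelled values, both standing at 5.59 in the wild type. No conclusion is drawn from the 3 of 3. NRARP, an ankyrin-repeat protein that Notch induces and that dampens Notch in turn, was the member with the largest rise. Its values were 5.57 and 5.60 in the wild-type arrays and 7.72 and 7.83 in the knockout-labelled arrays, a 4.56-fold rise (log2 difference 2.19 ± 0.10 SE, limma adjusted p = 0.000137). NRARP has 1 probe set. HES1, the most widely used readout of Notch activity and a repressor of other cell fates in the bile duct lineage, rose from 6.31 and 6.23 to 8.26 and 7.89. The difference was 1.80 ± 0.15 (adjusted p = 0.000849), or 3.49-fold. A second probe set of HES1 gave 1.91, and its dimmest, at the 7.5th percentile of all probe sets, gave 0.03 and was not called.

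The HEY genes encode repressors related to HES. HEY1 rose from 4.96 and 4.85 to 6.40 and 6.47, a difference of 1.53 ± 0.10 (limma adjusted p = 0.000411), and its second probe set gave 1.17 and was also called. HEY2 had values of 2.42 and 2.63 against 3.03 and 3.38, low on the arrays in both groups. Its difference of 0.68 passed (adjusted p = 0.0238) but not without wild-type replicate 1 (0.173), wild-type replicate 2 (0.102) or knockout replicate 2 (0.0902). HEYL had values of 5.92 and 5.55 against 5.71 and 5.75, with both knockout-labelled values between the wild-type ones and a 95% interval of −0.39 to 0.38 (adjusted p = 0.995).

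The remaining HES genes split likewise. HES6, which is known to antagonise HES1 rather than to act as a standard Notch target, was identical in the 2 wild-type arrays, at 5.59, and stood at 7.11 and 7.08 in the knockout-labelled ones (1.51 ± 0.09, limma adjusted p = 0.000336). HES2 had values of 5.38 and 5.27 against 5.45 and 5.71 (adjusted p = 0.189). HES4 had values of 6.07 and 6.48 against 5.99 and 5.84 (adjusted p = 0.166), and HES5 3.04 and 3.14 against 2.71 and 3.17 (adjusted p = 0.566). The 95% interval was −0.79 to 0.07 for HES4 and −0.60 to 0.30 for HES5, whose probe set is dim and need not follow a change of the transcript. Rises of more than 2-fold were therefore seen in HES1, HES6, HEY1 and NRARP, while HES4, HES5 and HEYL, genes of the same families, were not called.

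The upstream sequences of 4 of these targets are shown because the genes differ in response although 3 of them carry the same RBPJ-type word. They are the 250 bases before the annotated start, taken from RefSeq on GRCh38.p14 and printed on the gene's own strand, 5′ to 3′. Capitals mark the word GTGGGAA, a core of the RBPJ binding site, or its reverse complement TTCCCAC. HES1 lies at chr3:194135898-194136147 on the plus strand, HEY2 at chr6:125749382-125749631 on the plus strand, HES4 at chr1:1000098-1000347 on the minus strand and NRARP at chr9:137302272-137302521 on the minus strand.
HES1: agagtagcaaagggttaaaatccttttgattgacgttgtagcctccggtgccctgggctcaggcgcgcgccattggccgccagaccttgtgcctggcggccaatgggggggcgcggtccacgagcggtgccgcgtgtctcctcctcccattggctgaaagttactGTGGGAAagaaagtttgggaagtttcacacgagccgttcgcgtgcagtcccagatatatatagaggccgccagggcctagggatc
HEY2: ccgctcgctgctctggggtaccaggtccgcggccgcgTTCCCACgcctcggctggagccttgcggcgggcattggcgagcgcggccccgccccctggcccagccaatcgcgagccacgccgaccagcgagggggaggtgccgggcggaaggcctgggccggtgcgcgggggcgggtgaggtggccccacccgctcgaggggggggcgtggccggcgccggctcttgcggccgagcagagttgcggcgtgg
HES4: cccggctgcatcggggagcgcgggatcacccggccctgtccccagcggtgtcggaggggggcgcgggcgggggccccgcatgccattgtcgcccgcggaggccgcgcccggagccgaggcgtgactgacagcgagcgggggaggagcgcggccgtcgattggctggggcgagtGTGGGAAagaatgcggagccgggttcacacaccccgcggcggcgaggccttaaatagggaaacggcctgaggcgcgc
NRARP: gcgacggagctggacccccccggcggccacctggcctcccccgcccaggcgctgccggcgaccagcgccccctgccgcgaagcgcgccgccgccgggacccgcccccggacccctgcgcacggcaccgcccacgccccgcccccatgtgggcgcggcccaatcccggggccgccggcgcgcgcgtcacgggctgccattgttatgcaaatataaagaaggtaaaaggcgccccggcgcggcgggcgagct

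The word sits at a similar distance in genes with different responses. In HES1, which was 3.49-fold higher, it starts 85 bases before the start of the gene, and in HES4, which was not called, 77 bases before it, in the same orientation. In HES5, which was not called either, it starts 81 bases before the start in that orientation, with a further match on the opposite strand. HEY2 holds a match on the opposite strand whose first base lies 213 bases before the start, and another that crosses the start and is not printed. HEYL holds 1 match, on the opposite strand, and 1 of the 5 windows of RBPJ holds 2. NRARP, the member with the largest rise, does not hold the word in its window. Promoter windows of 300 bases (250 before the start and 50 after it) were given for 31 of the 37 genes, and 6 of these 31 (19.4%) held GTGGGAA on either strand, against 7.62% of 27305 genes with a window. Of the 6, HES1 and HEY2 were called higher and HES4, HES5, HEYL and RBPJ were not called. A further word, the E-box CACGTG, which reads the same on both strands, was found in 1 of the 31 genes, ADAM10, and in 8.77% of all genes. Such matches are a description of the letters in these windows and not a measure of binding.

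Genes with several probe sets allow a check of the called genes. Of the 20 called genes 14 had more than 1 probe set. In JAG2, MAML2 and HEY1 all of them passed in the same direction when each probe set was tested on its own, and none of the 14 had a probe set called in the other direction. Of the 80 probe sets, 20 were called higher and 6 lower, or 32.5%, where 26.9% of all probe sets were called. ADAM17 and NUMBL had no probe set past the threshold when adjusted over all 54613 probe sets (adjusted p = 0.0725 and 0.0514 for their brightest), and neither had RFNG, which has 1 probe set (0.0736).

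**Figure D3:**
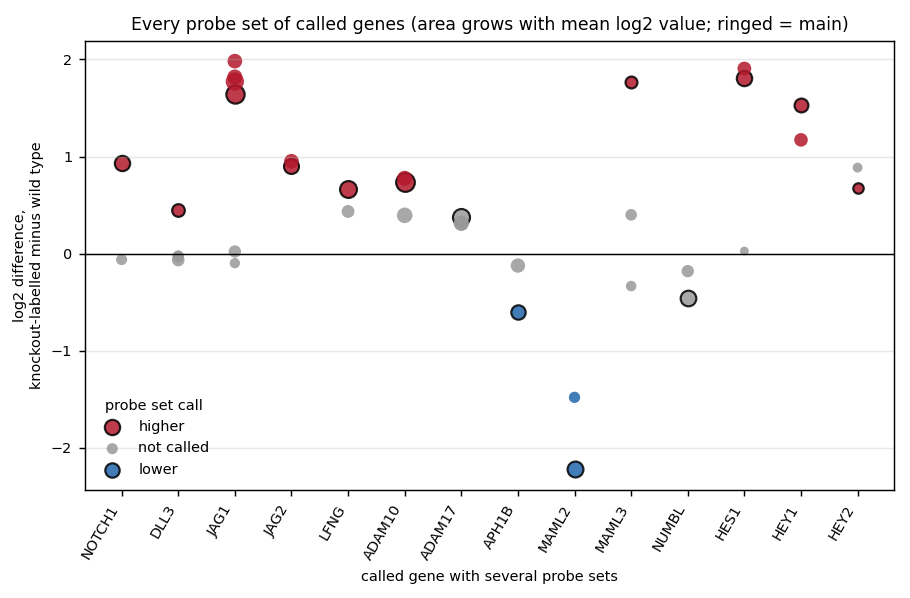
Log2 difference (vertical axis) of every probe set of the 14 called genes that have several (horizontal axis), coloured by call when each probe set is adjusted over all 54613, with point area growing with mean log2 value and a ring around the brightest. In JAG1 and HES1 the called probe sets lie between 1.64 and 1.98 while their uncalled probe sets, each dimmer than the called ones, lie near 0. ADAM17 and NUMBL have only uncalled probe sets at this level.

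A further list of pathway genes was drawn up by function, with earlier results of these data known. It held 53 genes, of which 47 were measured. Of these, 12 were called higher and 17 lower (61.7% called, against 38.7% of all genes), with a median difference of −0.02. Leaving out genes below the 40th percentile, 30 of the remaining 40 were called (75%) against 63% of all remaining genes. Some, such as DNER, passed that filter only through the group where they were high, so no conclusion is drawn from that share. The 6 with the largest called differences were DNER, TLE4, CNTN1, BHLHE41, TSPAN33 and TSPAN5. DNER, a transmembrane protein described as a non-classical Notch ligand of neurons and glia, stood at 7.84 and 7.70 in the wild-type arrays and at 2.88 and 2.64 in the knockout-labelled ones (−5.01 ± 0.13, limma adjusted p = 3.16e-05). CNTN1 (contactin 1), another proposed non-classical ligand, had values of 5.51 and 5.95 against 2.31 and 2.65 (−3.25 ± 0.20, adjusted p = 0.000335). Of the other genes on the list described as non-classical ligands or modulators of Notch, named after their values were seen, EGFL7 was called higher (1.09, adjusted p = 0.0036, but 0.0568 without wild-type replicate 2) and DLK1 (0.11) and DLK2 (0.31) were not called.

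The largest rise of that list was in a corepressor. TLE4, a Groucho family protein through which HES and HEY proteins repress genes, rose from 5.89 and 5.71 to 9.91 and 10.01 (4.16 ± 0.11, limma adjusted p = 3.58e-05), and 4 of its 5 probe sets were called. Its paralogues TLE1 (−0.66) and TLE3 (−0.70) were called lower, both not without wild-type replicate 1 (adjusted p = 0.0755 and 0.123) or 2 (0.0795 and 0.175), TLE3 also not without knockout replicate 1 (0.0655), and TLE2 was not called (adjusted p = 0.111). BHLHE41, a repressor of the wider HES-related family, fell from 8.67 and 8.75 to 5.75 and 5.61 (−3.03 ± 0.11, adjusted p = 7.33e-05), with 2 of its 4 probe sets called. Without _x_at and _s_at probe sets, which can bind more than 1 transcript or gene, BHLHE41 was not called (adjusted p = 0.167).

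Tetraspanins of the TspanC8 group carry ADAM10 to the cell surface and shape which proteins it cuts. TSPAN33 rose from 5.26 and 5.06 to 7.77 and 7.10 (2.27 ± 0.24, limma adjusted p = 0.00174). TSPAN5 fell from 8.74 and 8.64 to 6.63 and 6.22 (−2.27 ± 0.16, adjusted p = 0.00053), with all 3 of its probe sets called. The other 2 of the group on the list, named after their values were seen, were TSPAN15, higher by 2.19 (adjusted p = 0.000118), and TSPAN14, higher by 0.48 (adjusted p = 0.0267, but 0.153 without wild-type replicate 1, 0.158 without wild-type replicate 2 and 0.0704 without knockout replicate 1).

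**Figure D4:**
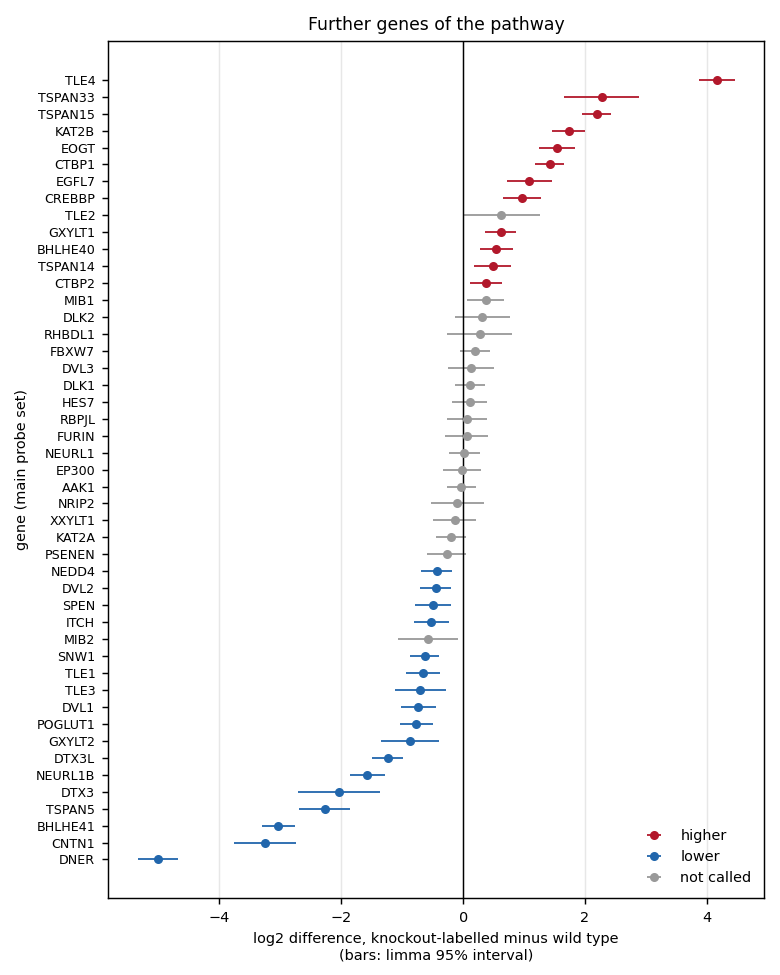
Log2 difference (horizontal axis, knockout-labelled minus wild type, with limma's 95% interval) of the 47 measured genes of the further list, ordered by difference and coloured by call. TLE4 at 4.16 and DNER at −5.01 lie at the ends, and 18 genes were not called.

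Genes that mark or direct the bile duct and hepatocyte fates were looked at beside the pathway, since Notch acts on that choice. Of 10 listed genes 8 were measured, 3 were called higher and 2 lower, where 21.5% and 17.2% of all genes were, with a median difference of 0.29 beside 0.06 over all genes. At or above the 40th percentile of mean level 4 of 5 were called (80%), against 63% of all such genes. Of these, ONECUT2 passed only through its knockout-labelled values (mean 6.10, against 3.65 in the wild type). No conclusion is drawn from that share. At or above the 60th it was 3 of 4 (75%), against 73.7%. SOX9, a transcription factor of bile duct cells and a known Notch target there, had values of 7.85 and 7.98 against 8.22 and 8.06, and was not called (difference 0.22, limma adjusted p = 0.196). SOX4, which acts with SOX9 in bile duct development, rose from 10.39 and 10.45 to 11.77 and 11.72 (1.33 ± 0.10, adjusted p = 0.000533). ONECUT2 rose from 3.88 and 3.42 to 6.33 and 5.87 (2.45 ± 0.23, adjusted p = 0.00112), while its paralogue ONECUT1 was not called (adjusted p = 0.0995).

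KRT7 and KRT19, keratins of mature bile duct cells, were lower by their brightest probe sets. Of the further keratins among the epithelial markers, KRT8 was called higher (0.82, limma adjusted p = 0.00582). KRT18 was not called (0.24, limma adjusted p = 0.144). KRT7 fell from 12.42 and 12.48 to 10.13 and 10.14 (−2.32 ± 0.09, limma adjusted p = 0.000106), with 1 of its 4 probe sets called, and without _x_at and _s_at probe sets it was not called (adjusted p = 0.565). KRT19 fell from 11.34 and 11.55 to 10.52 and 10.51 (−0.92 ± 0.11, adjusted p = 0.00279, but 0.0557 with the mean of its probe sets). Of its 2 probe sets, 1 was called. CEBPA, a hepatocyte transcription factor, rose from 3.42 and 3.54 to 5.12 and 4.77 (1.46 ± 0.15, adjusted p = 0.00161), and PROX1, expressed in hepatocytes and their progenitors, was not called (adjusted p = 0.346). Higher JAG1, HES1 and HEY1 were therefore found in the same arrays as lower KRT7 and KRT19 and higher SOX4, ONECUT2 and CEBPA. SOX9, ONECUT1 and PROX1 were not called.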

How the data were processed

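RNA of 4 HuCCT1 samples was measured on 1-colour Affymetrix 3′ expression arrays. Per the submitters' processing notes the authors used RMA and the affy package, versions not stated, and the deposited values were read as log2. They ran from 0.866 to 13.9, with array medians of 3.99 to 4.03. Depth does not apply to arrays, and their number limits the precision. Of the probe sets, 41091 had 1 symbol in the platform annotation, 1801 had several and 11721 had none, and 41037 of the first were found in RefSeq (GRCh38.p14). The brightest probe set over the 4 arrays stood for a gene, and dim genes were kept.

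Testing used lmFit and eBayes of limma 3.58.1 (R 4.3.3) without covariates, with p-values adjusted over all 19775 genes. The fit was also run on simulated data with far fewer changed genes than were called here, and no conclusion is drawn from that run. Alternatives were a variance trend, averaged probe sets, each probe set on its own, no _x_at or _s_at probe sets, filters at the 40th and 60th percentile, centring, a new quantile normalization, a replicate block and leaving out each array. Members and lists were chosen with earlier results of these data known. All members were named, called ones with the values of every array, as were the 6 largest called differences of the further pathway list and all fate genes.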

Additional observations from a re-analysis of the deposited data

How the results depend on the processing

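Of the 20 called genes, NOTCH1, JAG1, JAG2, MAML2, DTX2, HES6, HEY1 and NRARP kept their call in every alternative in which they were tested (12 to 14 of 14). The other 12 lost it in at least 1, and no called gene changed sign in any. HES1 lost its call in 1, the fit without _x_at and _s_at probe sets, which leaves only its dim probe set (difference 0.03, adjusted p = 0.925). In that fit 3 members were called lower, with 27 of the 37 genes tested, and without genes under the 60th percentile 4 were called lower, with 19 tested. Over the 4 fits that left out 1 array, members called higher ranged from 8 to 11, members called lower from 2 to 5, all genes called from 3939 to 6220 and genes of the further pathway list called from 13 to 25. With the replicate number as a block 11 members were called higher and 5 lower, and 16 of the 20 calls were kept. DLL3, RFNG, ADAM17 and NUMBL lost theirs (adjusted p = 0.061, 0.0892, 0.0888 and 0.0614). Deviations of same-numbered arrays had only a weak negative correlation (r = −0.105 across 19775 genes, which are not independent). With the numbers crossed, an alternative added after seeing the data, 11 members were called higher and 7 lower. NOTCH2, APH1A and RBPJ, not called, were called in 1, 5 and 3 alternatives.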

Other observations

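NUMB has 3 further probe sets that the annotation also assigns to an overlapping locus, LOC101928143, so they were not used above. All 3 were lower in the knockout-labelled arrays. The brightest fell from 7.60 and 7.66 to 6.69 and 6.76 (−0.90 ± 0.11, limma adjusted p = 0.00463 over all probe sets), and the others differed by −0.83 (adjusted p = 0.0228) and −1.99 (adjusted p = 0.00761). In the brightest the knockout-labelled arrays lay within 0.08 of each other, in contrast to the gap of 1.03 in the probe set that carries the symbol of NUMB alone. A probe set shared by NOTCH2 and its partial copies NOTCH2NLA, NOTCH2NLB, NOTCH2NLC and NOTCH2NLR had values of 7.82 and 7.99 against 7.69 and 7.62 and was not called (adjusted p = 0.211).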
